A study of Homo sapiens with 24 samples.

Results

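The nuclear genes of oxidative phosphorylation were followed in human cells made to express 1 of 7 microRNAs (miRNAs). Members were the protein-coding genes whose current symbols begin with NDUFA, NDUFB, NDUFC, NDUFS, NDUFV, UQCR or ATP5, or name a cytochrome c oxidase subunit from COX4 to COX8. Of the 29794 genes in the count tables, 91 met this rule, and 84 of them had enough reads to be tested in each batch. By complex they comprised 37 genes of complex I, 8 of complex III, 18 of complex IV (12 tested) and 18 of complex V (17 tested). The symbol rule also takes in 8 NDUFAF genes, which encode complex I assembly factors and not subunits, together with COX7A2L, a factor of respiratory supercomplex assembly, and ATP5IF1, the inhibitor protein of the ATP synthase. NDUFA4 and NDUFA4L2 were counted with complex IV, to which NDUFA4 is now assigned.

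Oxidative phosphorylation takes place in the inner mitochondrial membrane. Complexes I to IV pass electrons from NADH and succinate to oxygen, and all of them but complex II pump protons. Complex V, the ATP synthase, uses the returning protons to make ATP. Most subunits are encoded in the nucleus and imported, while a small core set is encoded by mitochondrial DNA, so that complexes I, III, IV and V are assembled from the products of both genomes. A miRNA pairs through its seed, bases 2 to 8 counted from its 5′ end, with matching sites that lie mostly in 3′ untranslated regions (3′UTRs) and lowers the mRNAs that carry them.

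The cells were Flp-In T-REx 293, a derivative of HEK293, a human embryonic kidney line. Each carried an integrated lentiviral cassette in which a doxycycline-inducible CMV promoter drives GFP with the miRNA hairpin inside an intron, and the empty vector control was the same GFP cassette without a hairpin. All groups, controls included, went through 6 days of Geneticin at 1 mg/mL and 7 days of doxycycline at 1 µg/mL. Replicates were transduced and kept apart, and poly(A) RNA was sequenced with a strand-specific kit.
Batch 1 held empty vector, miR-1 and miR-122 cells with 2 libraries each, and batch 2 held empty vector cells and cells with miR-133a or miR-155, or with miR-302a, miR-372 or miR-373, at 3 libraries each, 24 libraries in all. Each comparison used the control libraries of the same batch. Total counts ran from 20153452 to 21595191 in batch 1 and from 13047400 to 35040778 in batch 2. VIM (908 to 1310 CPM, counts scaled to a common library size) and KRT18 (79.6 to 121 CPM), which HEK293 cells express, were present in every library, whereas the muscle marker CKM had at most 8 reads, the liver marker ALB at most 5 and the leukocyte marker PTPRC at most 4. A known target of each miRNA fell with it: TWF1 by 1.99 with miR-1, ALDOA by 0.47 with miR-122, TAGLN2 by 1.95 with miR-133a, JARID2 by 1.16 with miR-155, and LATS2 by 1.09 with miR-372, by 0.85 with miR-302a and by 0.80 with miR-373, all given as log2 fold-changes that passed the test.

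The mature guide strands are shown because the 7 miRNAs hold only 5 different seeds, and a response that follows the seed can be told from a response to a single miRNA. They are RefSeq sequences (GRCh38.p14), 5′ to 3′, with the seed in capitals. The first 4 differ from each other in the seed, and the last 3 share the seed AAGUGCU.
miR-1: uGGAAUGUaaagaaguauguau
miR-122: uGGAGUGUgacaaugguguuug
miR-133a: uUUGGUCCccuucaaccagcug
miR-155: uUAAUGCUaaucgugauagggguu
miR-302a: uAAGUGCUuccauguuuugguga
miR-372: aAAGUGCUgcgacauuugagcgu
miR-373: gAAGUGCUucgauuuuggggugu

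Matches to these seeds were sought in the longest annotated 3′UTR of each gene (GENCODE models on GRCh37), counting 8mers, matches to bases 2 to 8 (7mer-m8) and matches to bases 2 to 7 followed by A (7mer-A1). The 3′UTRs of members were short, with a median of 471.5 bases against 1539 bases over all genes tested in batch 2. For the AAGUGCU seed, 15 of 84 members (17.9%) held a match, against 30.1% of all tested genes with a 3′UTR. The shares for the other miRNAs were likewise lower among members: 11.9% against 24.1% for miR-1, 14.3% against 25.7% for miR-122, 9.52% against 17.2% for miR-133a and 10.7% against 19.2% for miR-155. The sites below are those that bear on the results, read from GRCh37 on the strand of the gene with the match in capitals. The first belongs to the member that fell with all 3 miRNAs of the AAGUGCU seed, and the other 3 belong to members with a match to the same seed that were not called lower.
NDUFAF3 (7mer-A1, chr3:49060677-49060683, plus strand): taccctttgGCACTTAtcttgctta
NDUFA9 (8mer, chr12:4796938-4796945, plus strand): agcagtgccAGCACTTAggaattatg
UQCRC1 (7mer-m8, chr3:48636489-48636495, minus strand): cacaaacacAGCACTTcggctcctc
ATP5F1A (7mer-m8, chr18:43660693-43660699, minus strand): tgtaatctcAGCACTTtgggacgat

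In empty vector cells the members covered a wide range of levels. Levels between genes are given as CPM per kilobase of the deposited exon length, which joins all annotated exons and so understates genes with a long rare isoform. In batch 2 ATP5F1B, the catalytic β subunit of the ATP synthase, was highest at 643 ± 16.8 CPM per kb (SD, n = 3), followed by ATP5PO of the stalk at 337 ± 29.5 and the complex I subunit NDUFS5 at 315 ± 13.0. ATP5PO, NDUFS5, UQCRH, COX8A and COX6A1 lay between 293 and 337 CPM per kb, with neighbours in this order closer than the larger of their SDs. The median per complex was 46.7 CPM per kb for complex I, 104 for complex III, 132 for complex IV, 112 for complex V and 23.4 for the NDUFAF assembly factors. ATP5F1B and ATP5PO led in batch 1 too, with ATP5F1B at 696 ± 16.9 CPM per kb (SD, n = 2).

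**Figure D1:**
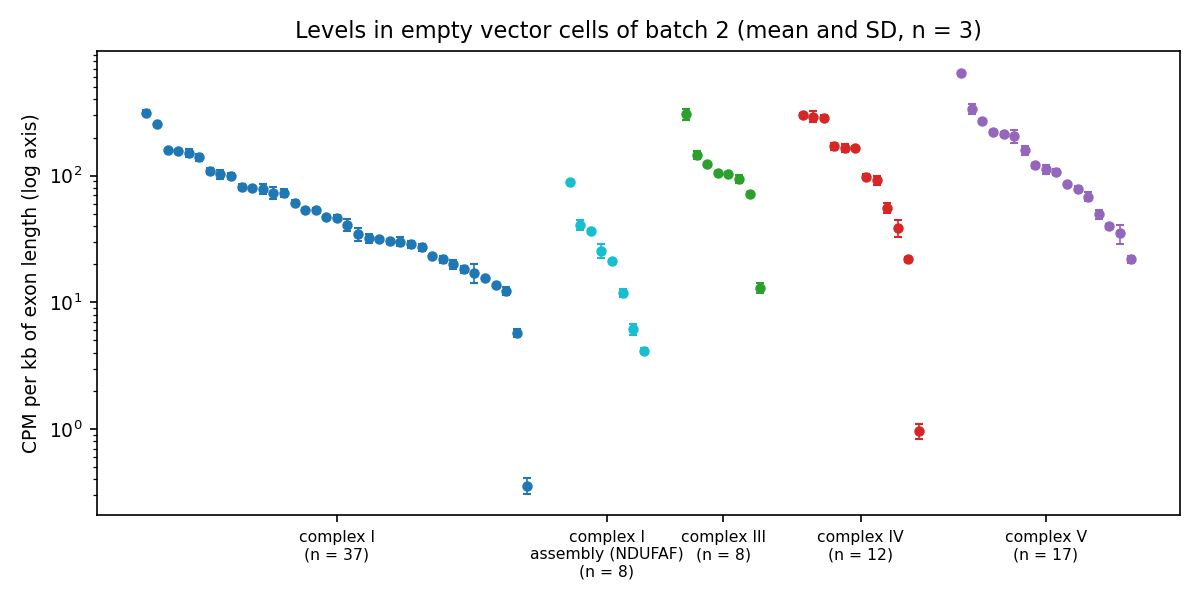
Level of each tested subunit gene and NDUFAF factor in empty vector cells of batch 2 on a log axis, in CPM per kb of exon length, with the mean and SD of 3 libraries, ordered within complex. ATP5F1B of complex V is highest at 643 CPM per kb and NDUFA11 of complex I lowest at 0.357 CPM per kb.

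Of paired isoforms only the ubiquitous forms were found. COX4I1, COX6A1 and COX7A2 stood at 170, 293 and 98.2 CPM per kb in empty vector cells of batch 2. Their tissue-restricted counterparts COX4I2, COX6A2 and COX7A1 were listed with 0 to 2 reads in each of the 24 libraries and were not tested. The same held for COX7B2, while COX6B2, COX8C and ATP5MGL had at most 21, 10 and 3 reads. The 3 genes for subunit c of the ATP synthase rotor were all expressed, ATP5MC1 at 107, ATP5MC2 at 85.8 and ATP5MC3 at 39.7 CPM per kb.
At the low end stood NDUFA11 (0.357 CPM per kb), NDUFA4L2 (0.971), NDUFAF6 (4.15) and NDUFA13 (5.76). NDUFA11 is overlapped on its strand by another annotated gene, and the counting does not assign reads that lie in overlapping genes. Whether this lowered the value of NDUFA11 was not tested. Many other members are also overlapped on their strand by an annotated gene or small RNA, among them ATP5PO, ATP5MF, ATP5MG, COX6A1, NDUFA7, NDUFA13, NDUFAF6, NDUFC2, NDUFS1, NDUFS4 and NDUFV1. ATP5F1A, ATP5MC1, ATP5MG, ATP5MF and COX6A1 each have 6 to 8 annotated pseudogenes, and reads that match both gene and copy are lost to the mapping-quality filter.

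Over the 7 comparisons with the empty vector, 26 of 588 pairs of member and miRNA passed the test (edgeR quasi-likelihood, adjusted p under 0.05 over all genes), 21 higher and 5 lower, in 20 different members. Most changes were under 0.4 in log2 fold-change. The plot of log2 fold-changes by complex shows 3 patterns, taken in turn: NDUFAF3 fell with the 3 miRNAs of the AAGUGCU seed; with miR-1 most of the called nuclear members were higher and most mitochondrially encoded subunits lower; and in batch 2 the median member lay above 0 with each of the 5 miRNAs, with few single members called.

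**Figure D2:**
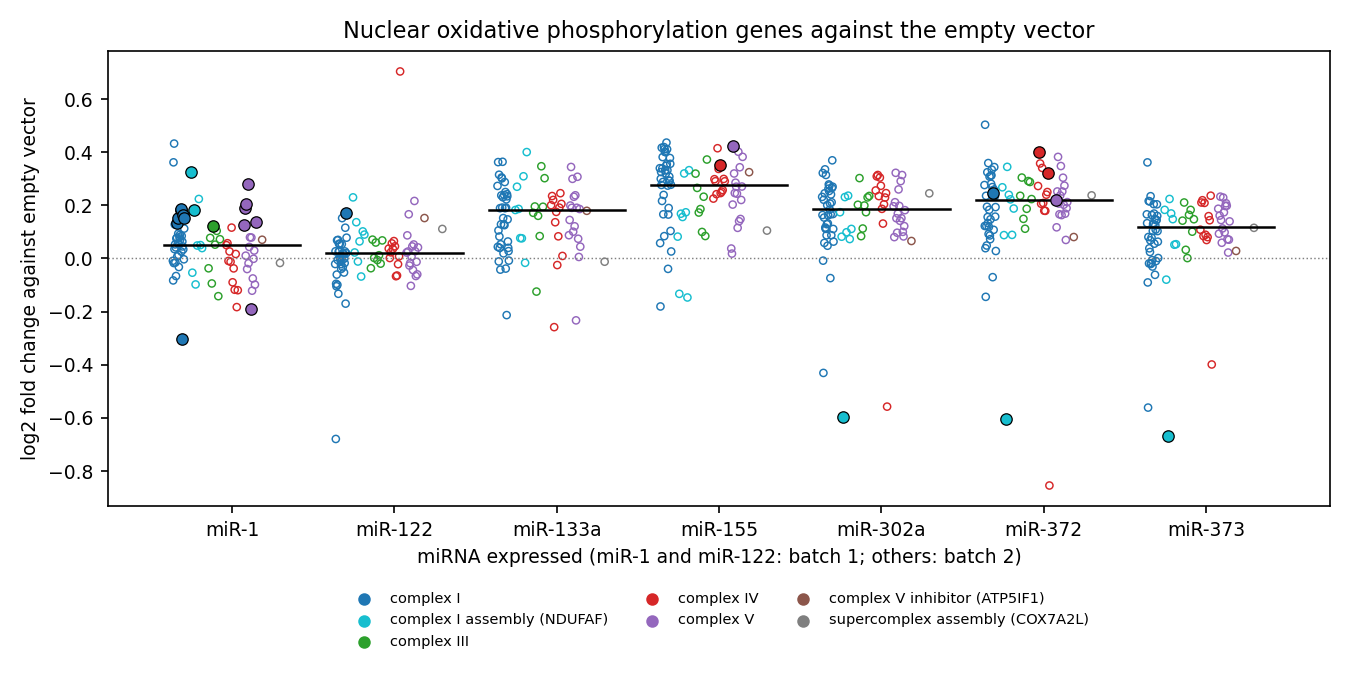
Log2 fold-change of each of the 84 tested members against the empty vector of its batch, coloured by complex. Filled points passed the test, open points did not, and the bars give the median member. NDUFAF3 is the filled point at -0.60, -0.61 and -0.67 with miR-302a, miR-372 and miR-373.

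NDUFAF3 encodes a small mitochondrial protein needed for the early assembly of complex I, and lies at chr3:49057892-49060928 on the plus strand. In empty vector cells of batch 2 it was measured at 75.6, 78.0 and 81.3 CPM. With miR-302a it stood at 54.0, 48.8 and 52.7 CPM, with miR-372 at 48.4, 57.3 and 49.0 CPM, and with miR-373 at 48.6, 49.7 and 49.4 CPM. All 9 libraries of the AAGUGCU seed lay below all 3 control libraries. With miR-133a (87.1, 93.0 and 87.3 CPM) and miR-155 (81.0, 95.4 and 87.7 CPM), which have other seeds, the levels were not lower than in the control. In bulk RNA, fewer cells with a transcript and less of it per cell cannot be told apart.
NDUFAF3 fell by 0.60 ± 0.08 with miR-302a (SE, adjusted p = 9.4e-05), by 0.61 ± 0.08 with miR-372 (adjusted p = 6.3e-05) and by 0.67 ± 0.08 with miR-373 (adjusted p = 2.8e-05) on the log2 scale, in edgeR's quasi-likelihood test. It kept its call with each of the 3 miRNAs in all 15 alternative analyses. In a contrast chosen after these values were seen, the mean of the 3 same-seed miRNAs against the mean of miR-133a and miR-155, fitted without a replicate block, it fell by 0.80 ± 0.05 (edgeR, adjusted p = 9.1e-10). That contrast called 5 members in all, against 27.8% of all tested genes: NDUFB1 at -0.30, NDUFA4L2 at -0.75 and NDUFAF8 at -0.25 were lower as well, and ATP5F1A was higher at 0.14.

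**Figure D3:**
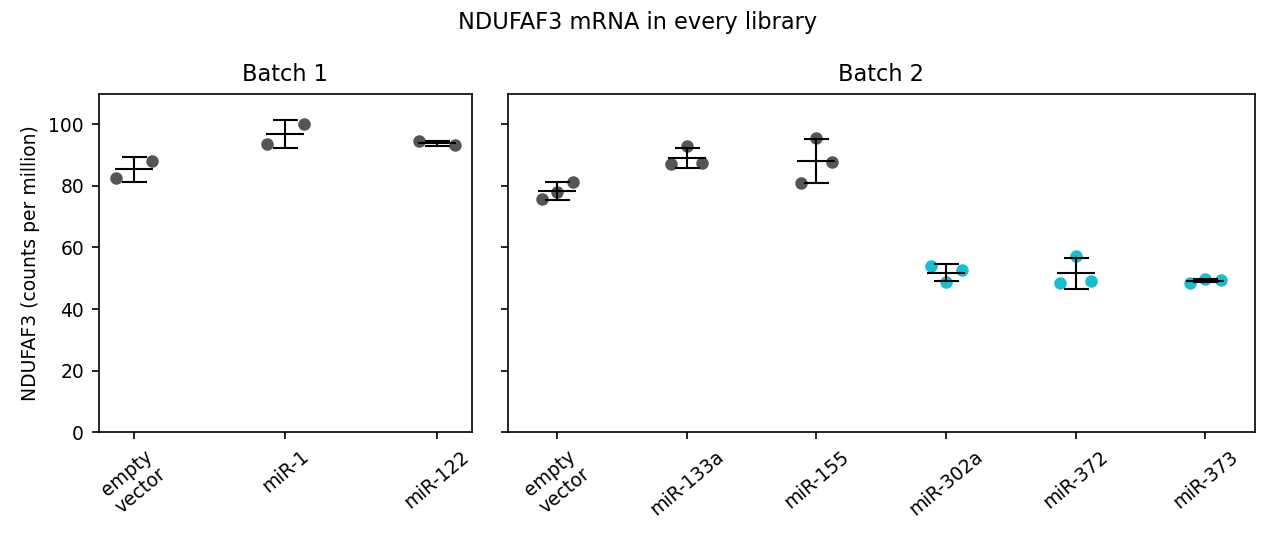
NDUFAF3 in every library, in CPM, with the group mean and SD (n = 2 per group in batch 1, n = 3 in batch 2). The 9 libraries with the AAGUGCU seed sit between 48.4 and 57.3 CPM, and the control libraries of batch 2 between 75.6 and 81.3 CPM.

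The match in NDUFAF3 begins at base 72 of a 3′UTR of 323 bases. NDUFAF3 was the sole one of the 15 members with an AAGUGCU match to be called lower. NDUFA9, the complex I subunit that carries the 8mer printed above and 3 further matches, had log2 fold-changes of 0.11, 0.13 and 0.07 with miR-302a, miR-372 and miR-373, none of them called. UQCRC1, a core protein of complex III with a match in a 3′UTR of 126 bases, had 0.11, 0.11 and 0.0015. Among muscle markers DES was higher with the same 3 miRNAs, by 1.95, 2.47 and 2.18 in log2 fold-change, at no more than 1.43 CPM in any library. The other muscle markers were likewise low in batch 2. ACTA1 reached at most 1.2 CPM, MYOD1 0.686, CKM 0.351 and MYH7 0.14, and their directions with these miRNAs are not given here. DES had 1 to 36 reads per library in batch 2, and no cell type can be read from a single marker at this level. Whether cells expressing DES had a part in the NDUFAF3 result was not tested. Over all tested genes with a match, 9.93% were called lower with miR-302a, 12.7% with miR-372 and 6.98% with miR-373.
Beyond NDUFAF3, no further member was called with miR-302a (1 of 84 members, against 7.88% of all tested genes, 4.85% lower and 3.02% higher) or with miR-373 (1 of 84, against 5.13%, 3.3% lower and 1.83% higher). For miR-302a the count was 13 when only its libraries and the control were fitted, 7 without a filter on low counts and 4 with DESeq2, and for miR-373 it was 3 with DESeq2. With miR-372, 5 of 84 were called, against 11.4% of all tested genes (6.56% lower, 4.82% higher). Those that rose with miR-372 included COX5A, a nuclear subunit of complex IV, at 0.40 ± 0.12 (SE), NDUFA4 at 0.32 ± 0.10, and ATP5F1A, the α subunit of the ATP synthase, at 0.22 ± 0.07, with edgeR adjusted p from 0.033 to 0.049.
COX5A stood at 290, 357 and 283 CPM with miR-372 against 245, 217 and 243 CPM in the control. NDUFA4 stood at 55.8, 65.9 and 53.0 CPM against 48.5, 44.9 and 46.0 CPM. Groups did not overlap for either gene, and replicate 2 of miR-372 was the highest library for each. ATP5F1A, which rose, holds the AGCACTT match printed above. Only 1 member was called with miR-372 when only its libraries and the control were fitted, with 10 under DESeq2, and 1 to 16 when single libraries were left out (16 without miR-372 replicate 3, 1 without empty vector replicate 1).
Compared with each other, the 3 same-seed miRNAs did not differ in any member by edgeR (0 of 84 called in each of the 3 pairs, 0% of all tested genes called, 0 members with an unadjusted p under 0.05, and 0 called by DESeq2). For NDUFAF3 the 3 estimates against the control span -0.67 to -0.60.

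miR-1 is a muscle miRNA and miR-122 a liver miRNA, both foreign to these kidney cells. With miR-1, 16 of 84 members (19%) were called, 14 higher and 2 lower, where 24.5% of all tested genes were called, 10.8% higher and 13.7% lower. The median member stood at 0.05 against -0.00011 over all tested genes. With miR-122, 1 of 84 was called (1.19%), against 5.92% of all tested genes (4.06% lower, 1.86% higher), and the median member stood at 0.02.
By complex, miR-1 moved 7 of 37 complex I subunits (6 higher, 1 lower), 2 of 8 NDUFAF factors (both higher), 1 of 8 complex III subunits (higher) and 6 of 17 complex V subunits (5 higher, 1 lower). Of complex IV, 0 of 12 were called by edgeR, with 3 at an unadjusted p under 0.05 and 0 called by DESeq2.

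NDUFAF1, a complex I assembly factor, had the largest rise among the called members: 24.1 and 26.8 CPM in the control and 31.0 and 32.8 CPM with miR-1 (0.32 ± 0.07, SE, edgeR adjusted p = 0.0022). ATP5MC1, a gene for rotor subunit c, stood at 85.9 and 94.3 CPM in the control and at 110 and 108 CPM with miR-1 (0.28 ± 0.05, edgeR adjusted p = 4.0e-04). ATP5F1D, the δ subunit of the central stalk, went from 72.6 and 76.3 to 85.3 and 86.6 CPM (0.21 ± 0.05, edgeR adjusted p = 0.0090). In each of these genes both miR-1 libraries lay above both control libraries. The other risers were smaller: ATP5F1B 0.19, NDUFS1 0.19, NDUFC2 0.18, NDUFAF3 0.18, NDUFS7 0.16, NDUFV1 0.15, NDUFB11 0.15, ATP5PO 0.14, NDUFAB1 0.13, ATP5F1A 0.13 and UQCRC1 0.12. They include the catalytic pair of the ATP synthase head, ATP5F1A and ATP5F1B,.
NDUFS4, an accessory subunit of complex I, fell by 0.30 ± 0.06 on the log2 scale (SE, edgeR adjusted p = 8.4e-04). Its libraries read 42.4 and 43.99 CPM in the control, 34.7 and 35.5 CPM with miR-1 and 43.8 and 42.6 CPM with miR-122, so that the miR-1 pair stood apart from the other four. ATP5MF, a small membrane subunit of complex V, fell by 0.19 ± 0.06 (edgeR adjusted p = 0.023), from 75.8 and 86.5 to 70.2 and 72.0 CPM. Neither NDUFS4 nor ATP5MF held a miR-1 seed match in its longest 3′UTR. Of the 10 members with such a match NDUFS1 alone passed the edgeR test, or had an unadjusted p under 0.05, and it was higher, whereas 26.4% of all tested genes with a match were called lower.
NDUFS4, NDUFAF1 and ATP5MC1 kept their calls in all 13 alternative analyses. The count of members did not: it was 8 with DESeq2's Wald test, 6 without miR-1 replicate 1 and 26 without empty vector replicate 2, and the median member went to -0.0017 without empty vector replicate 1.

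NDUFV1, the subunit that binds NADH, was the member called with miR-122: 138 and 140 CPM in the control and 157 and 156 CPM with miR-122 (0.17 ± 0.04, SE, edgeR adjusted p = 0.016). The count was 0 without miR-122 replicate 1 and 7 without empty vector replicate 2. NDUFV1 was higher with miR-1 too, at 156 and 153 CPM, and both comparisons use the same control libraries. At an unadjusted p under 0.05, 15 members differed with miR-122, 11 higher and 4 lower. NDUFV1 holds no miR-122 seed match.

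Tested directly against each other, miR-1 and miR-122 differed in 17 of 84 members (20.2%, against 31.2% of all tested genes, 16% lower and 15.2% higher), 11 higher and 6 lower with miR-1. ATP5MC1 differed by 0.30 ± 0.05 (edgeR adjusted p = 1.4e-04), and its miR-122 libraries at 90.3 and 87.7 CPM lay within the range of the control. ATP5MJ, a small proteolipid of complex V, was lower by 0.34 ± 0.07 (edgeR adjusted p = 5.9e-04), with 96.9 and 89.4 CPM in miR-1 cells and 123 and 113 CPM in miR-122 cells, while the control libraries at 110 and 92.6 CPM overlapped both. NDUFS4 differed by -0.30. NDUFAF6, an assembly factor, was higher with miR-1 at 17.7 and 17.4 CPM against 14.7 and 13.97 CPM (0.29 ± 0.09, edgeR adjusted p = 0.015). The widest log2 differences belonged to NDUFA11 (1.04) and NDUFA4L2 (-0.82), both near 1 CPM, and each lost its call in several alternatives (5 of 12 and 7 of 12). With single libraries left out 3 to 8 members were called (3 without miR-1 replicate 1), and ATP5MC1, ATP5MJ and NDUFS4 kept theirs in all 13 alternatives.
Over all 3 groups of batch 1, 17 of 84 members differed (34.1% of all tested genes), with 8 under DESeq2, 7 without miR-1 replicate 1 and 36 without empty vector replicate 2.

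The subunits encoded by mitochondrial DNA, 8 of which were in the count tables, went the other way from most called nuclear members in miR-1 cells. With miR-1, 7 of 8 were called lower and none higher, where 13.7% of all tested genes were called lower. The median log2 fold-change of the 8 was -0.34. MT-ND2 of complex I fell most, by 0.66 ± 0.04 (SE, edgeR adjusted p = 3.5e-10), from 1362 and 1467 CPM to 906 and 887 CPM. MT-CO2 of complex IV fell by 0.46 ± 0.04, from 2535 and 2698 to 1889 and 1905 CPM, and MT-CYB, the cytochrome b of complex III, by 0.38 ± 0.04, from 2789 and 2942 to 2200 and 2214 CPM. MT-CO1, the most abundant, missed the threshold with a log2 fold-change of -0.10 (edgeR adjusted p = 0.054).
With miR-122, 4 of 8 were called lower, where 4.06% of all tested genes were. They were MT-CYB by 0.35 ± 0.04, MT-ND2 by 0.27 ± 0.04, MT-ND6 by 0.21 ± 0.05 and MT-ND1 by 0.15 ± 0.04. Directly compared, 6 of 8 were lower with miR-1 than with miR-122, against 16% of all tested genes. Together the 8 made up 1.93% and 2.01% of counts in the control, 1.62% and 1.63% with miR-1, and 1.90% and 1.82% with miR-122. The nuclear members made up 1.02% and 1.09% in the control, 1.11% and 1.08% with miR-1, and 1.11% and 1.07% with miR-122. In batch 2, 0 of 8 were called with each of the 5 miRNAs by edgeR and by DESeq2, and 1 had an unadjusted p under 0.05, with miR-133a.
The count of 7 lower with miR-1 was 7 or 8 with any 1 library left out, and that of 4 with miR-122 was 2 without miR-122 replicate 1 and 6 without empty vector replicate 1. Most but not all mRNAs of mitochondrial DNA carry short poly(A) tails. Whether the recovery of any of the 8 by poly(A) selection moved with the groups was not tested.

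**Figure D4:**
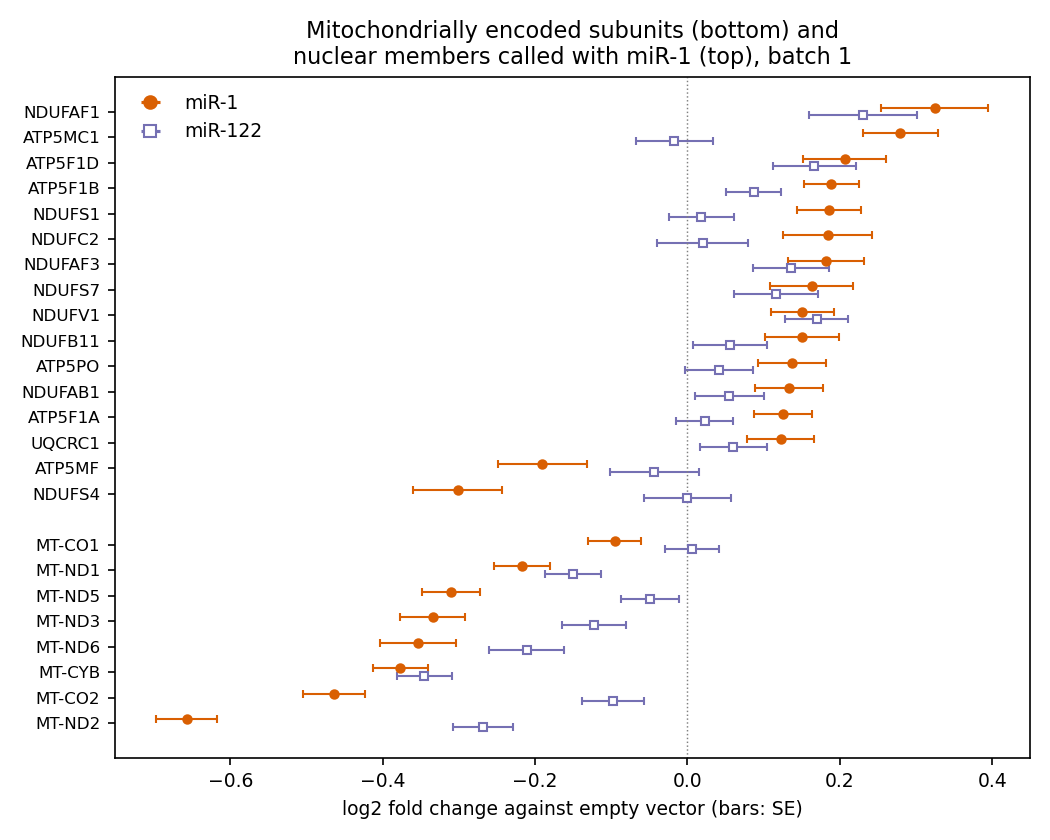
Log2 fold-change against the empty vector with its SE in miR-1 cells (filled circles) and miR-122 cells (open squares), for the 8 mitochondrially encoded subunits (bottom) and the 16 nuclear members called with miR-1 (top). With miR-1 all 8 mitochondrially encoded subunits lie below 0, from MT-ND2 at -0.66 to MT-CO1 at -0.10.

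Genes that assemble or govern the complexes were read from further lists. For comparison, 24.5% of all tested genes were called with miR-1, 10.8% higher and 13.7% lower. With miR-1, 9 of 23 complex IV assembly factors were called, 8 higher, led by COX20 at 0.37, and COX18, which inserts COX2 into the membrane, lower at -0.36. Among complex III assembly factors 3 of 6 rose, led by LYRM7 at 0.26, and UQCC2 fell at -0.17. Of 4 complex II assembly factors SDHAF4 (-0.31) and SDHAF3 fell, while the complex II subunits SDHA and SDHC rose with CYC1, the cytochrome c1 of complex III that the symbol rule does not take in, at 0.22. Of 9 complex I assembly factors outside the NDUFAF genes, COA1 fell (-0.14) and TMEM186 rose (0.24), and of 3 complex V factors TMEM70 fell (-0.21) and ATPAF1 rose (0.17).
Among 16 regulators of mitochondrial genes, 5 rose with miR-1, led by the nuclear receptor ESRRA at 0.26 and including POLRMT, the mitochondrial RNA polymerase, at 0.23. GABPB2, a subunit of the GABP (NRF-2) transcription factor, fell by 0.51. Of 14 carriers and membrane dynamics genes 5 rose and 1 fell, from SLC25A5 at -0.12 to FIS1 at 0.32. Mitochondrial ribosomal proteins had 10 of 73 higher and 1 lower, and cytosolic ribosomal proteins 2 of 81 higher and 15 lower, 15.1% and 21% called against the 24.5% over all tested genes.
With miR-122 these lists gave 1 or 2 calls at most: COA1 at -0.17, LYRM7 at -0.19, TFAM at -0.15, SLC25A5 at -0.18 and VDAC1 at 0.19. TFAM packages mitochondrial DNA and takes part in its transcription.
In batch 2 ESRRA rose with the 3 same-seed miRNAs, at 0.58, 0.62 and 0.42 with miR-302a, miR-372 and miR-373, as did UQCC1, a complex III assembly factor, at 0.20, 0.27 and 0.24. GABPB2 fell with miR-133a (-0.63), miR-302a (-0.49), miR-372 (-0.47) and miR-373 (-0.35). PET100, a complex IV assembly factor, fell by 1.02 with miR-133a and SDHAF4 by 0.81, and FIS1 rose by 0.74. With miR-155 COX15 (-0.39) and YY1 (-0.20) fell, and COX20 (0.53) and SDHB (0.51) rose. Of mitochondrial ribosomal proteins 4.11% were called with miR-133a, 2.74% with miR-155 and 5.48% with miR-372 (73 tested), and of cytosolic ones 2.47%, 1.23% and 1.23% (81 tested), each below the share over all tested genes. With miR-372 SCO1 (0.24), CYC1 (0.30), SLC25A5 (0.28) and VDAC2 (0.29) rose.

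In batch 2 the median member lay above 0 with each of the 5 miRNAs. The median log2 fold-changes were 0.18 with miR-133a, 0.28 with miR-155, 0.18 with miR-302a, 0.22 with miR-372 and 0.12 with miR-373, where the median over all tested genes was between -0.0010 and 0.0057. Of 84 members, 63 lay above 0 with all 5 miRNAs and 1 below 0 with all 5, the long NDUFS1, which was not called with any of them. The share of all tested genes, or of genes of like length, above 0 with all 5 is not given here. Tested genes with 1000 to 2000 bases of exon had medians from 0.062 with miR-373 to 0.14 with miR-155. The 28 members in that range had medians from 0.12 with miR-373 to 0.29 with miR-155. The 5 comparisons share their control libraries. Medians were alike across complexes: with miR-155, for example, 0.31 for complex I, 0.21 for complex III, 0.29 for complex IV and 0.25 for complex V.
Few single members passed. With miR-133a, 0 of 84 were called by edgeR (5.34% of all tested genes, 3.97% lower and 1.37% higher), with 16 at an unadjusted p under 0.05, all higher, and 0 called by DESeq2. When only its libraries and the control were fitted, 21 were called with miR-133a, and 4 were called without a filter on low counts. With miR-155, 2 of 84 were called (7.63% of all tested genes, 4.81% lower and 2.82% higher), with 49 at an unadjusted p under 0.05, all higher, and 10 called by DESeq2. COX7A2, the ubiquitous form of a small complex IV subunit, rose by 0.35 ± 0.10 (SE, edgeR adjusted p = 0.036), with 144, 167 and 137 CPM against 123, 112 and 116 CPM in the control. ATP5F1D rose by 0.42 ± 0.12 (edgeR adjusted p = 0.043), with 96.8, 128 and 90.4 CPM against 74.5, 80.7 and 80.1 CPM. For both, the groups did not overlap and replicate 2 of miR-155 was highest. The count was 0 without any 1 of the control libraries or without miR-155 replicate 2, 5 without miR-155 replicate 1 and 17 without miR-155 replicate 3.

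The shift moved with the libraries' dependence on gene length. For each library the log2 ratio to the control mean was regressed over all genes on log2 exon length, and a negative slope means that short genes read higher. Tested members were short, with a median exon length of 1530 bases against 3584 over all tested genes. Replicate 2 of miR-155 (slope -0.154, median member 0.55 above the control mean), replicate 2 of miR-372 (-0.152, 0.42) and replicate 2 of miR-133a (-0.083, 0.30) stood out from their groups. Their companions had slopes from -0.067 to -0.016 and median members from 0.041 to 0.17. Replicates 1 and 3 of miR-302a had slopes of -0.0956 and -0.0937, with median members at 0.189 and 0.219. These slopes were steeper than that of miR-133a replicate 2, while the median members were lower. Replicate 1 of miR-373 had a slope of -0.0593 and a median member at 0.186. The controls had slopes of -0.014, 0.028 and -0.014, with median members at 0.051, -0.074 and 0.014.
Over all tested genes the median was above 0 in the length classes up to 4000 bases and below 0 in the longer classes with each of the 5 miRNAs. With miR-155 the median log2 fold-change was 0.14 over the 2036 tested genes with 1000 to 2000 bases of exon and 0.29 over the 28 members in that range, and between 4000 and 8000 bases it was -0.055 over 4793 genes and 0.22 over 7 members. Mitochondrial ribosomal proteins had medians from 0.15 to 0.20 with miR-372, miR-302a, miR-155 and miR-133a. With the slope as a covariate in the fit the members' medians lay between -0.026 and 0.034 for all 5 miRNAs, and the calls with miR-155 fell to 0 and those with miR-133a rose to 4. Whether the length dependence made the shift was not tested, since slope and members were measured in the same libraries.

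**Figure D5:**
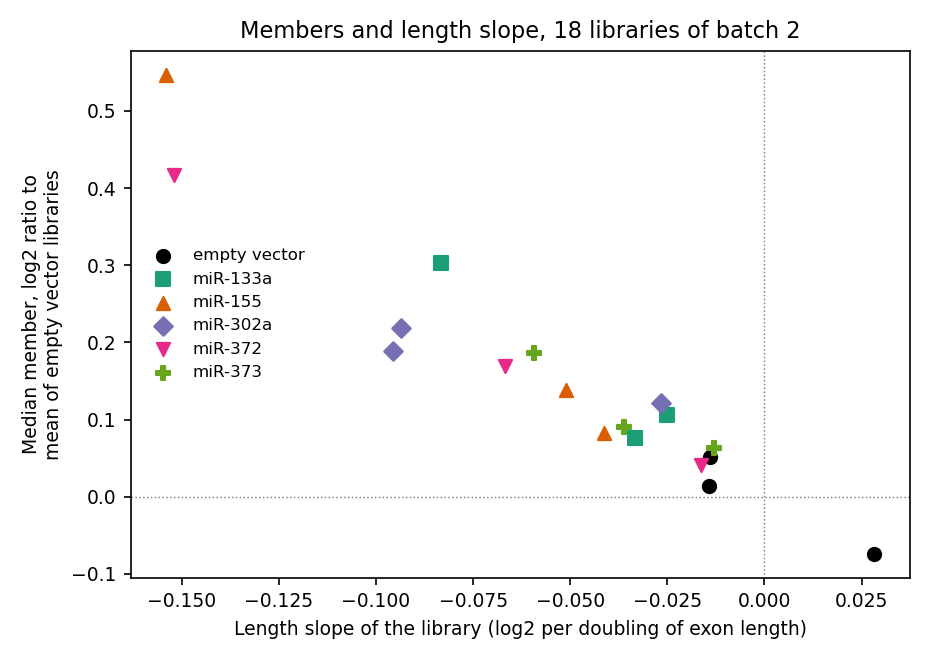
Median member in each of the 18 libraries of batch 2, as log2 ratio to the mean of the control libraries, against the library's length slope in log2 per doubling of exon length. Replicate 2 of miR-155 lies at the upper left (slope -0.154, median member 0.55), and the 3 controls lie near 0 on both axes.

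Differences between miRNAs of batch 2 with unlike seeds were tested as well. miR-133a and miR-155 differed in 6 of 84 members (16.7% of all tested genes, 8.61% lower and 8.14% higher), 5 lower and 1 higher with miR-133a. The values are from the fit without a replicate block, and 7 members were called with it. ATP5MG, subunit g of the ATP synthase, stood at 79.5, 94.6 and 84.9 CPM with miR-133a and at 111, 183 and 109 CPM with miR-155 (-0.63 ± 0.16, SE, edgeR adjusted p = 0.0092). NDUFS4 stood at 40.2, 45.0 and 41.9 CPM against 53.0, 76.9 and 51.1 CPM (-0.51 ± 0.14, edgeR adjusted p = 0.014), and COX6A1 at 63.8, 81.6 and 67.1 CPM against 89.6, 130 and 81.2 CPM (-0.50 ± 0.14, edgeR adjusted p = 0.020). The groups did not overlap for ATP5MG and NDUFS4 and overlapped slightly for COX6A1, and replicate 2 was the highest of its group in each case.
In the control ATP5MG read 106, 92.4 and 106 CPM, above 2 of the 3 miR-133a libraries and, for its lowest library, below the third. NDUFAF2, a complex I assembly factor, was the one higher with miR-133a (38.6, 41.7 and 30.9 against 26.4, 33.2 and 24.6 CPM, 0.40 ± 0.13, edgeR adjusted p = 0.037), with overlapping groups. The count for this pair was 0 without miR-133a replicate 1, 2 without miR-133a replicate 3 or miR-155 replicate 2, and 5 to 7 without any of the others. Over all 6 groups of batch 2, 3 members differed (26.6% of all tested genes): NDUFAF3 (edgeR adjusted p = 3.2e-08), ATP5MG (0.039) and COX7A2 (0.044). With the replicate block 5 members differed, without empty vector replicate 1 a single one, and without miR-155 replicate 2 there were 7.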

How the data were processed

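Poly(A) RNA from 24 libraries of Flp-In T-REx 293 cells was sequenced and processed by the authors with adapter clipping, TopHat 2.1.1 alignment against hg19 (versions per the submitters' processing notes) and counting over the exons of each gene by featureCounts, strand-specifically and above a mapping-quality limit. The deposited values used here are these raw counts, with 1 table per batch; every per-sample column was used, and the exon length column belongs to no sample. Deposited tables of the authors' own comparisons hold their fold changes and adjusted values and were not used.

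Of 29794 gene identifiers, 28543 were matched to current symbols. Genes passing filterByExpr (minimum count 10) were fitted per batch with TMM scaling and edgeR 4.0.16 (quasi-likelihood, all groups of the batch) in R 4.3.3, with Benjamini-Hochberg adjustment over all genes and a threshold of 0.05. SEs were taken from the fitted fold change and its F statistic. CPM are TMM-scaled. The fit was tested on simulated counts. Replicates were transduced separately, and replicate pairs differed by more than counting noise (chi-square per degree of freedom of at least 1.82). Members and gene lists were chosen with earlier results of these data known. The text gives library values for the 3 lowest and 3 highest called members per comparison, up to 10 called per direction, isoform sets, and the lowest and highest called gene of each other list; MT genes and other examples were picked after their values were seen. HEK293, muscle, liver and blood markers were read as counts. Same-numbered libraries were checked for shared deviations from their group means: correlations were above 0.1 for all 3 pairs in 2 of the pairs compared, miR-133a with miR-155 (0.183, 0.345, 0.198) and miR-302a with miR-372 (0.227, 0.336, 0.161), and not in the comparisons with the empty vector. They were above 0.1 also for miR-155 with miR-302a (0.131, 0.202, 0.112), miR-133a with miR-372 (0.167, 0.3, 0.137) and miR-155 with miR-372 (0.273, 0.614, 0.451), which enter the tests over several groups. All printed fits are without the block unless the block is named. Alternatives were DESeq2 1.42.0 (size factors, Wald test), edgeR's likelihood ratio test, other filters, fewer groups, a replicate block, a minimum fold change, a length covariate, subunits only, and each library left out. Results for some items are not reported here.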

Additional observations from a re-analysis of the deposited data

Results flagged for a closer look

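Groups of 2 or 3 libraries are too small for the test of single outlying libraries, so none was run. The direct tests of 1 miRNA against another gave 23 member differences between miRNAs whose effects were measured against the same controls. Between miR-1 and miR-122 the log2 differences (edgeR, adjusted p under 0.05) were 1.04 for NDUFA11, 0.30 for ATP5MC1, 0.29 for NDUFAF6, 0.20 for NDUFS8, 0.18 for NDUFC1, 0.17 for NDUFS1, 0.16 for NDUFC2, 0.15 for NDUFA5, 0.14 for NDUFS3, 0.10 for ATP5F1A and 0.10 for ATP5F1B. They were -0.82 for NDUFA4L2, -0.34 for ATP5MJ, -0.30 for NDUFS4, -0.19 for NDUFA4, -0.14 for COX7A2 and -0.13 for COX7A2L. Between miR-133a and miR-155 they were 0.40 for NDUFAF2, -0.63 for ATP5MG, -0.51 for NDUFS4, -0.50 for COX6A1, -0.42 for NDUFA7 and -0.38 for COX7A2.
NDUFS4 and COX7A2 differed in both pairs. Of all tested genes 31.2% differed between miR-1 and miR-122 and 16.7% between miR-133a and miR-155, and the share differing in both was not computed. NDUFS4 was lower by 0.30 with miR-1 than with miR-122, and by 0.51 with miR-133a than with miR-155. Replicate 2 of miR-155 read 76.9 CPM and its companions 53.0 and 51.1 CPM. Against the empty vector NDUFS4 was not called with miR-133a (-0.21, edgeR adjusted p = 0.40) or with miR-155 (0.29, edgeR adjusted p = 0.19).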

How the results depend on the processing

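No called member turned its direction under any alternative; 454 alternative values kept their call and 211 lost it. Counts of called members moved most, and, beyond what the alternative's own construction shows (fewer samples, fewer genes, a stricter limit), the cause was not tested. DESeq2's Wald test gave 8 members over batch 1, 9 over batch 2, 8 for miR-1, 5 for miR-1 against miR-122, 0 for miR-122, 10 for miR-372, 3 for miR-373, 10 for miR-155 and 4 for miR-302a. Its size factors in edgeR gave 2 for miR-122 and 2 for miR-302a, as did requiring each library to exceed 1 CPM. The likelihood ratio test gave 8 over batch 2, 9 for miR-372, 10 for miR-155, 5 for miR-122 and 3 for miR-302a. Without a filter there were 21 over batch 2, 28 for miR-155, 18 for miR-372, 11 for miR-133a against miR-155, 7 for miR-302a, 4 for miR-133a and 3 for miR-122. Fitting only the groups compared gave 21 for miR-133a, 13 for miR-302a, 3 for miR-133a against miR-155, 2 for miR-122, 1 for miR-372 and 0 for miR-155. Keeping only calls of at least 0.2 in absolute log2 fold-change left 4 for miR-1, 7 for miR-1 against miR-122 and 0 for miR-122. Counting subunits only left 0 for miR-373 and 0 for miR-302a, since NDUFAF3 is no subunit. The length slope as a covariate gave 36 over batch 1, 17 over batch 2, 28 for miR-1 against miR-122, 11 for miR-133a against miR-155, 4 for miR-133a, 8 for miR-122, 2 for miR-372 and 0 for miR-155, with medians of 0.0337 (miR-133a), 0.00435 (miR-373), -0.000179 (miR-1), -0.00347 (miR-155), -0.0237 (miR-372), -0.0259 (miR-302a) and -0.0413 (miR-122). Without 7mer-A1 matches, 5 members matched miR-1, 4 matched miR-155, 4 miR-122 and 3 miR-133a. The match printed for NDUFAF3 is a 7mer-A1, which this alternative leaves out.

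The replicate number as a block gave 11 over batch 1, 5 over batch 2, 10 for miR-1, 10 for miR-1 against miR-122, 10 for miR-155, 10 for miR-372, 3 for miR-302a, 3 for miR-133a and 2 for miR-122. Where the data paired the numbers, the blocked counts were 7 for miR-133a against miR-155 and 0 for miR-302a against miR-372.

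With each library left out in turn, counts ran from 7 to 36 over batch 1, 1 to 7 over batch 2, 6 to 26 for miR-1, 3 to 8 for miR-1 against miR-122, 0 to 17 for miR-155 (17 without miR-155 replicate 3), 1 to 16 for miR-372, 0 to 7 for miR-133a against miR-155, 0 to 7 for miR-122 and 1 to 3 for miR-302a. Mitochondrially encoded calls ran from 2 (without miR-122 replicate 1) to 6 (without empty vector replicate 1) for miR-122; these alternatives were chosen after seeing the data. Medians ran from 0.116 (without miR-372 replicate 2) to 0.295 for miR-372, 0.108 (without miR-155 replicate 2) to 0.362 for miR-155, -0.00169 to 0.105 for miR-1 and -0.0283 to 0.0696 for miR-122. In batch 1, leaving out a library leaves a group with 1 library that is assumed to vary like the others.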
